A study of Mus musculus with 13 samples.

Results

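The 9 epithelial keratins Krt5, Krt6a, Krt7, Krt8, Krt14, Krt15, Krt17, Krt18 and Krt19 were taken by gene symbol from the deposited count and TPM tables, in which each matched 1 of 46679 gene IDs. They are 9 of the 53 protein-coding keratin genes in these tables. Krt7, Krt8, Krt18 and Krt19, 4 genes, are keratins of simple or luminal epithelium, and Krt5, Krt6a, Krt14, Krt15 and Krt17, 5 genes, are keratins of basal or stratified epithelium. Bulk RNA came from female FVB mice that were all 10 weeks old. The 3 tumors had grown for 2 weeks in the inguinal mammary fat pad of mice injected with 250000 Met1 cells at 8 weeks of age. The 4 tumor-bearing lungs came from 4 mice injected in this way, 3 of which (mice 6877, 6880 and 6881) also gave the tumors. The 4 normal lungs came from mice without a tumor. Met1 is a single mammary carcinoma line from FVB mice, so the tumors model 1 line, and each sample was a piece of whole tissue that holds stroma and other cells beside the epithelium. Libraries were prepared in 2 batches. Tumor-bearing lungs 6879, 6880 and 6881 and normal lungs 6886 and 6888 were in batch 1, while tumor-bearing lung 6877, normal lungs 6887 and 6893 and all 3 tumors were in batch 2. Normal lungs 6886 and 6888 also had a second library in batch 2, which was used only where stated, in every fit of batch 2 alone and in fits of all 13 libraries.

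Keratins are intermediate filament proteins that assemble only in pairs of a type I and a type II chain. Krt8 (type II) and Krt18 (type I) are the primary pair of simple epithelia, and Krt7 (type II) and Krt19 (type I) join them in ductal, airway and alveolar epithelium. Krt5 (type II) and Krt14 (type I) form the pair of basal cells in stratified epithelia, of airway basal cells and of mammary myoepithelium. Krt15 is a type I chain of basal cells, and Krt6a (type II) and Krt17 (type I) are induced in wounded or stressed epithelium and in skin appendages. In the mammary gland the luminal chains therefore mark the inner, milk-producing layer, and the basal chains mark the outer, contractile layer.

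On GRCm38, type I genes lie in a cluster on chromosome 11 and type II genes in a cluster on chromosome 15, with 27 and 26 of the 53 keratin genes. Krt18 is the exception, a type I gene that lies in the type II cluster at 102028180 to 102032027 on the plus strand. Its partner Krt8 lies beside it at 101996698 to 102004482 on the minus strand, with 23697 bases between the genes. Krt7 lies on chromosome 15 at 101411043 to 101430313 and Krt19 on chromosome 11 at 100140810 to 100148665. Of the basal keratins, Krt14 lies on chromosome 11 at 100203162 to 100207548 and Krt5 on chromosome 15 at 101707070 to 101712898. RefSeq (GRCm38.p6) gave an upstream window of 250 bases for 5 of the 9 genes, namely Krt5, Krt7, Krt8, Krt14 and Krt18. The windows of Krt8 and Krt18 are shown because this neighbouring pair was higher in the tumors together. Only the stretch outside every annotated exon is printed, 110 bases for Krt8 at chr15:102004483-102004592 and 214 bases for Krt18 at chr15:102027966-102028179, each 5′ to 3′ on the strand of its gene.
Krt8: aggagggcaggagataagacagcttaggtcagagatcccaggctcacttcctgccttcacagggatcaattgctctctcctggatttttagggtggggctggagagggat
Krt18: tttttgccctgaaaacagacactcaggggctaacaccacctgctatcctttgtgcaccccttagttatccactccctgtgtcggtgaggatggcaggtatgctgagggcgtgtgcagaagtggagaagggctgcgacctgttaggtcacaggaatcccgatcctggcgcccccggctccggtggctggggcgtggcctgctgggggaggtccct
The windows of 250 bases were searched on both strands for TATAAA (the TATA box), GGGCGG (the GC box) and TGANTCA (the AP-1 string). Matches would stand in capitals. Neither Krt8 nor Krt18 held any of the 3 strings, nor did Krt5 or Krt14. Krt7 held GGGCGG 4 times and neither of the others. Among 32851 windows of the same length, 12.37% held TATAAA, 32.74% GGGCGG and 6.749% TGANTCA.

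The libraries held 8321037 to 13982903 estimated counts. Levels are given on 2 scales: CPM, counts scaled to library size with TMM factors, for one gene across libraries, and protein-coding TPM for different genes. The latter is the deposited TPM rescaled to the total of protein-coding genes alone, because non-coding RNAs took most of the deposited TPM and protein-coding genes held only 1.77 to 6.99% of it. Summed tissue markers followed the labels. The summed level of 6 alveolar type 2 markers was 33.7 to 67.0 protein-coding TPM in the tumors against 16265 to 35621 in the lungs, and that of 10 mammary luminal markers was 1075 to 1206 in the tumors against 73.9 to 172 in the lungs. Csn3, at a mean of 765, made up most of the mammary sum in tumors. Foxa1, Esr1 and Pgr of that list had lower means in tumors than in either kind of lung, and the rest had higher ones. Counts for Krt8 are less certain than for the other luminal keratins, since 23.5% of the 75-base windows of its transcripts also occur in other genes, mostly in the pseudogene Krt8-ps, which held 0 to 4 counts per library. The share was 51.1% for Krt6a, 7.77% for Krt5, 5.71% for Krt14, 0.0563% for Krt7 and 0% for the other 4 keratins.

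Tumors held several times more transcript of the simple epithelial pair Krt8 and Krt18 than either kind of lung, far less Krt19, and a low but clear level of the basal keratin Krt14. Krt18 was 6.37-fold and Krt8 3.51-fold higher in tumors than in normal lungs, Krt19 was 19.3-fold lower, and Krt7 2.18-fold lower. In tumor-bearing lungs none of the keratins tested passed the threshold against normal lungs. In bulk RNA, fewer cells of a type and less RNA per cell cannot be told apart.

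Krt18, the type I chain of the primary pair, stood at 291, 199 and 195 CPM in tumors 6877, 6880 and 6881. It stood at 31.5, 27.9, 34.1 and 37.1 CPM in tumor-bearing lungs 6879, 6880, 6881 and 6877, and at 53.3, 33.2, 33.2 and 30.9 in normal lungs 6886, 6888, 6887 and 6893. All tumors lay above all lungs, and tumor 6877 lay above the other 2. The log2 fold change was 2.67 (SE 0.27, adjusted p = 8.22e-06 by edgeR's quasi-likelihood test) against normal and 2.90 (SE 0.29, adjusted p = 9.78e-06) against tumor-bearing lungs.

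Krt8, the type II partner of Krt18, stood at 277, 195 and 208 CPM in tumors 6877, 6880 and 6881. It stood at 44.8, 49.6, 51.3 and 65.6 CPM in tumor-bearing lungs 6879, 6880, 6881 and 6877, and at 105, 64.7, 55.5 and 51.6 in normal lungs 6886, 6888, 6887 and 6893. Again all tumors lay above all lungs, and the highest lung was normal lung 6886. The log2 fold change was 1.81 (SE 0.30, adjusted p = 0.000351) against normal and 2.22 (SE 0.31, adjusted p = 0.000133) against tumor-bearing lungs.

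Krt19, a type I chain of ductal and airway epithelium, moved the other way. It stood at 4.28, 3.97 and 4.66 CPM in tumors 6877, 6880 and 6881. The tumor-bearing lungs held 82.4, 83.2, 81.7 and 99.3 CPM in mice 6879, 6880, 6881 and 6877, and the normal lungs 110, 79.5, 73.0 and 78.3 in mice 6886, 6888, 6887 and 6893. The tumors were alike and far below every lung. Krt19 fell by 4.27 on the log2 scale (SE 0.22, adjusted p = 5.37e-08) against normal and by 4.28 (SE 0.23, adjusted p = 8.40e-08) against tumor-bearing lungs.

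Krt7, a type II chain of ductal and alveolar epithelium, stood at 126, 58.3 and 111 CPM in tumors 6877, 6880 and 6881. The tumor-bearing lungs held 137, 144, 143 and 208 CPM in mice 6879, 6880, 6881 and 6877, and the normal lungs 282, 235, 178 and 179 in mice 6886, 6888, 6887 and 6893. All tumors lay below all lungs, but the gap to the tumor-bearing lungs was small. Krt7 fell by 1.13 on the log2 scale (SE 0.32, adjusted p = 0.0112) against normal lungs. That difference was −0.72 (adjusted p = 0.0203) with the second libraries of normal lungs 6886 and 6888, and it lost its call with limma on log2(TPM + 1), at −1.19 (adjusted p = 0.0532). Against tumor-bearing lungs the log2 difference was −0.66 (95% confidence interval −1.37 to 0.06, adjusted p = 0.122), which did not pass. With the mouse as a block on the 6 libraries of the 3 mice that gave both tissues Krt7 was called lower. The difference was −0.84 with adjusted p = 0.0414, where 44.8% of tested genes were called. That fit had no batch term, and lungs 6880 and 6881 were in batch 1 while all tumors were in batch 2, so tissue and batch cannot be told apart there. With the block on all 13 libraries and a batch term Krt7 was at −0.40 with adjusted p = 0.283. It also passed with the second libraries of normal lungs 6886 and 6888 in the fit (−1.05, adjusted p = 0.0248) and with batch 2 libraries alone (−1.03, adjusted p = 0.0469). Without tumor-bearing lung 6877, the one lung of that group prepared in the batch of the tumors, it was 0.01 (adjusted p = 0.985).

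**Figure D1:**
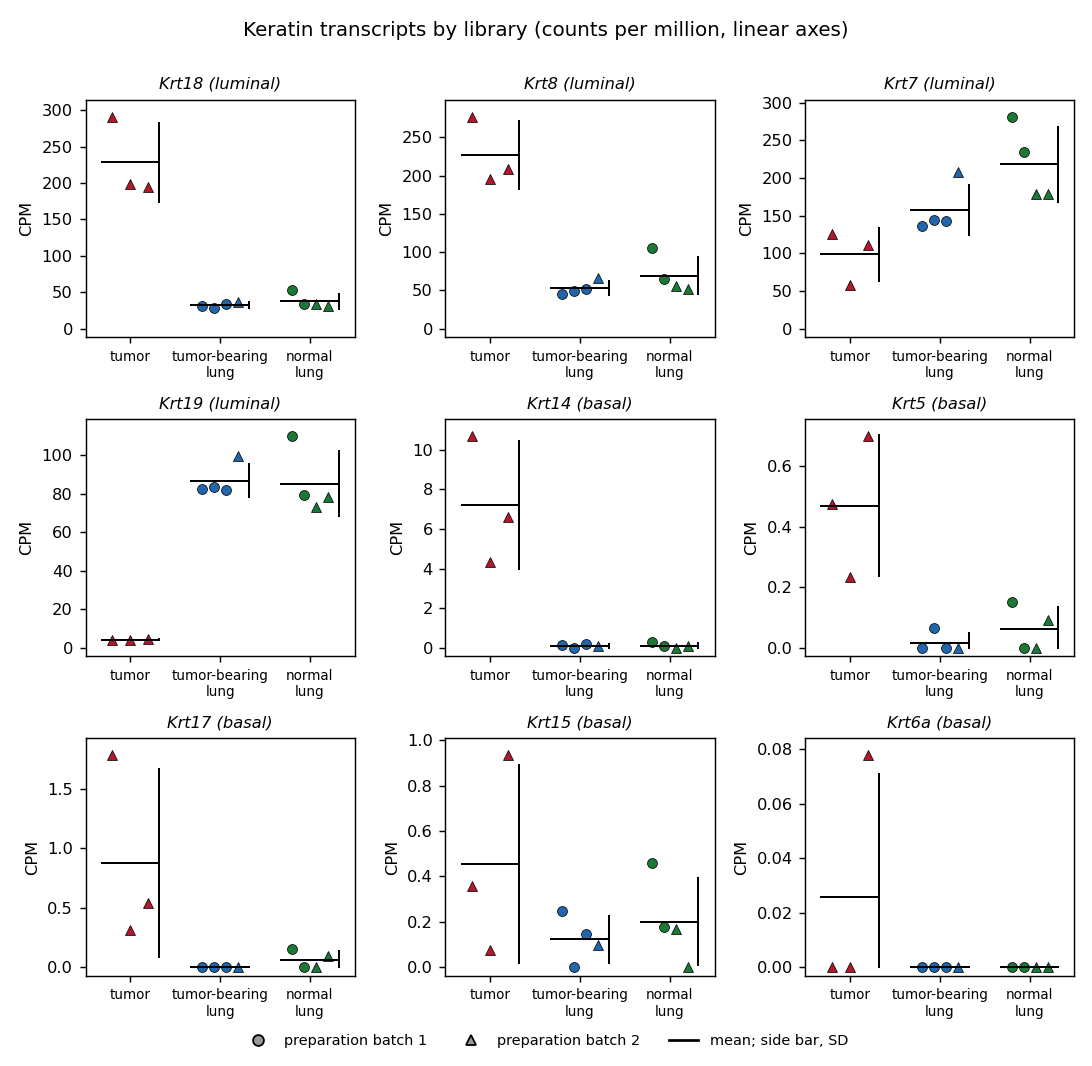
CPM of the 9 keratins (vertical axes, linear, each panel on its own scale) in 3 tumors, 4 tumor-bearing lungs and 4 normal lungs; circles are batch 1 and triangles batch 2 libraries, lines are means and side bars SD. Krt18, Krt8 and Krt14 were higher in every tumor than in any lung, Krt19 and Krt7 lower in every tumor than in any lung, and the tumor means of Krt5, Krt15, Krt17 and Krt6a were below 1 CPM.

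The basal keratins were scarce everywhere. Krt14, the type I chain of basal and myoepithelial cells, had 90, 56 and 85 counts in tumors 6877, 6880 and 6881, or 10.7, 4.36 and 6.61 CPM. The tumor-bearing lungs had 1, 0, 3 and 1 counts in mice 6879, 6880, 6881 and 6877, and the normal lungs 4, 1, 0 and 1 in mice 6886, 6888, 6887 and 6893. The highest lung, normal lung 6886 at 0.306 CPM, was far below the lowest tumor. Over the groups, the ratio of tumor to normal lung was 53.1 (exact 95% counting interval 24.0 to 146) and that of tumor to tumor-bearing lung 64.6 (27.3 to 201). edgeR called both differences, with adjusted p = 0.000117 and 0.000275, but Krt14 passed the filter on low counts only through the tumors, so it had to differ.

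The other 4 basal keratins did not pass the filter. Krt17, a chain induced in stressed epithelium and skin appendages, had 15, 4 and 7 counts in tumors 6877, 6880 and 6881. It had 0 counts in all 4 tumor-bearing lungs and 3 in total in the normal lungs. Each tumor was above each lung. The ratio to normal lung was 11.9 (counting interval 3.66 to 61.7), and the level was at least 12.1-fold higher than in tumor-bearing lungs, with 3 counts over the group as the floor. In a fit without the filter Krt17 was called against both normal (adjusted p = 0.0491) and tumor-bearing lungs (adjusted p = 0.00755), where 27.1% and 25.2% of all genes were called. With batch 2 libraries alone, which hold 1 tumor-bearing lung, the log2 difference from tumor-bearing lung was 6.31 against 6.92 and no longer passed (adjusted p = 0.0757), while that from normal lung was 4.76 against 3.90 and passed (adjusted p = 0.00603).

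Krt5, the type II partner of Krt14, had 4, 3 and 9 counts in tumors 6877, 6880 and 6881, 1 in all tumor-bearing lungs and 3 in all normal lungs. The tumors did not overlap the lungs. The ratio to normal lung was 7.35 (2.10 to 39.4) and that to tumor-bearing lung 22.4 (3.48 to 939), and neither difference was called without the filter (adjusted p = 0.120 and 0.0593). Krt15, a type I chain of basal cells, had 3, 1 and 12 counts in the tumors, 5 in all tumor-bearing and 10 in all normal lungs. Tumors and lungs overlapped, and the ratios were 2.21 (0.941 to 5.44) to normal and 4.48 (1.57 to 15.6) to tumor-bearing lungs. Without the filter the adjusted p of Krt15 was 0.308 and 0.133. Krt6a, which is induced in wounded epithelium, had 1 count in tumor 6881 and 0 in the other 10 libraries, so no fold is given.

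Markers of skin and fat also differed among the tumors that gave these counts. Lgals7, a galectin of stratified epithelium, had 108 counts in tumor 6877, which also had the most Krt14 and Krt17 in CPM, and 1 and 4 in tumors 6880 and 6881. Krt1, Krtdap and Dsg1a, markers of the upper epidermis, were at 0 counts in all 3 tumors. The summed level of 9 such suprabasal markers was 3.73 to 85.7 protein-coding TPM in the tumors, 4.98 to 13.7 in the tumor-bearing and 7.71 to 17.3 in the normal lungs. The 3 fat cell markers Adipoq, Plin1 and Cfd summed to 108 to 454 in the tumors, 1.56 to 36.3 in the tumor-bearing lungs and 0.513 to 10.9 in the normal lungs. The part of skin or fat pad in the keratin values was not tested.

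Trp63, the transcription factor of basal epithelial cells, had 68, 100 and 30 counts in tumors 6877, 6880 and 6881 and averaged 6.07 CPM there, 0.498 in tumor-bearing and 0.208 in normal lungs. Like Krt14 it passed the filter only through the tumors, so its call as higher carries no weight. Of the 4 basal epithelium markers other than keratins, only Trp63 and Col17a1 passed the filter, and Col17a1, a hemidesmosome collagen, was not called (log2 −1.22, adjusted p = 0.0940). Of the contractile genes that mark myoepithelium and smooth muscle, 4 of 5 tested were lower in tumors than in normal lungs. Over all tested genes 24.7% were lower. Among the 4, Cnn1 had 2, 10 and 11 counts in the tumors. It passed the filter only through the lungs and so had to be lower. The log2 differences were −0.94 for Tagln, −4.50 for Mylk and −3.90 for Myh11, and −0.41 for Acta2, which did not pass (adjusted p = 0.105). Oxtr, the oxytocin receptor of myoepithelium and the one list member not tested, did not pass the filter and had 5, 7 and 17 counts in the tumors.

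Counts over the keratins are read against the share of all genes called. In tumors against normal lungs, 5 of the 9 keratins were tested and all 5 were called, 3 higher and 2 lower, where 49.3% of 18297 tested genes were called, 24.5% higher and 24.7% lower. The 4 luminal keratins had a median log2 fold change of 0.34 beside −0.04 over all genes, since 2 rose and 2 fell. In tumors against tumor-bearing lungs 4 of 5 were called, 3 higher and 1 lower, where 46.3% of tested genes were called, 22.6% higher and 23.7% lower. The median of the 4 luminal keratins was 0.78 beside −0.10 over all genes. The split of calls over all genes depended on the scale. With limma on log2(TPM + 1), 2643 genes were higher and 3879 lower against normal lungs, and 4142 higher and 1180 lower against tumor-bearing lungs. With log2(TPM + 0.1) the numbers were 2432 and 4211, and 4154 and 1987. Both comparisons share the tumors, and Krt14 entered them through the tumors alone.

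**Figure D2:**
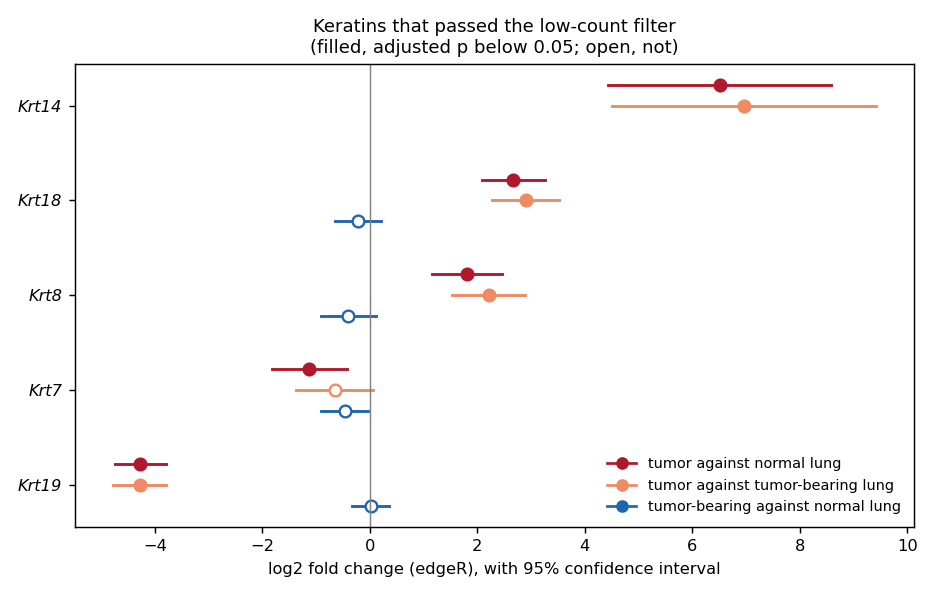
log2 fold change from edgeR (horizontal axis) with its 95% confidence interval for the keratins that passed the filter, in 3 comparisons by colour; filled points passed an adjusted p of 0.05. Krt14, Krt18 and Krt8 lie to the right of 0 and Krt19 far to the left in both comparisons of tumors, and every interval for tumor-bearing against normal lung lies within 1 log2 unit of 0.

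Set beside each other per transcript length, the luminal keratins came in a different order in the 2 tissues. In tumors the order by protein-coding TPM was Krt18 at 256 ± 21.1, Krt8 at 191 ± 4.66, Krt7 at 76.4 ± 20.3, Krt14 at 10.2 ± 2.79 and Krt19 at 6.99 ± 1.12 (SD, n = 3). The ranges of Krt14 and Krt19 overlapped, and those of the higher neighbours did not. In tumor-bearing lungs the order was Krt19 at 218 ± 7.55, Krt7 at 194 ± 15.6, Krt8 at 69.9 ± 3.94 and Krt18 at 57.8 ± 4.39 (SD, n = 4). In normal lungs it was Krt7 at 235 ± 65.3, Krt19 at 185 ± 42.9, Krt8 at 79.9 ± 31.1 and Krt18 at 57.6 ± 17.7 (SD, n = 4). Krt7 and Krt19 overlapped in both kinds of lung, and Krt8 and Krt18 overlapped in normal lungs only. In neither kind of lung did a basal keratin have a mean above 0.4 protein-coding TPM.

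The summed level of the 9 keratins was close between tissues, with means ± SD of 543 ± 26.4 protein-coding TPM over 3 tumors, 540 ± 10.9 over 4 tumor-bearing lungs and 557 ± 154 over 4 normal lungs. Its makeup was not. Krt8 and Krt18 made up 82.4 ± 4.07% of the sum in tumors and 23.7 ± 0.994% and 24.4 ± 2.12% in tumor-bearing and normal lungs. Krt7 and Krt19 made up 15.4 ± 3.61% in tumors and 76.2 ± 1.05% and 75.5 ± 2.18% in the lungs. The 5 basal keratins held 2.20 ± 0.580% in tumors, 0.0954 ± 0.0790% in tumor-bearing and 0.124 ± 0.0774% in normal lungs. Protein-coding TPM put the tumors lower relative to the lungs than the TMM-scaled fit did. For the 4 luminal keratins the fitted log2 difference exceeded the log2 ratio of mean protein-coding TPM by 0.45 to 0.76 in comparisons with tumors, so the equal sums hold on that scale alone.

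**Figure D3:**
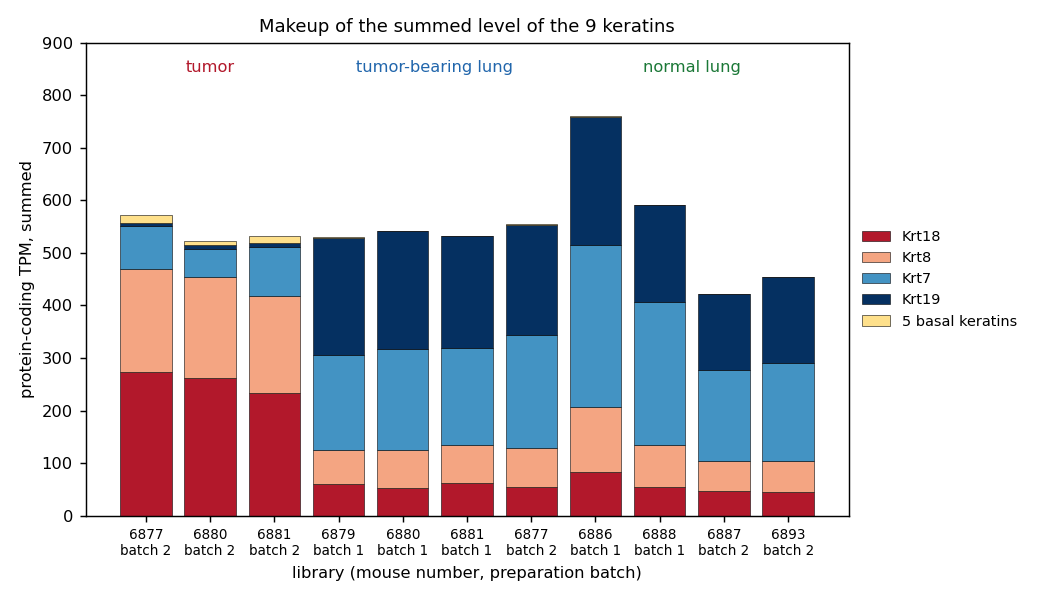
Protein-coding TPM of Krt18, Krt8, Krt7, Krt19 and the sum of the 5 basal keratins, stacked per library (vertical axis from 0; horizontal axis, mouse and preparation batch). Krt18 and Krt8 fill most of the 3 tumor bars, Krt7 and Krt19 most of the 8 lung bars, and the 2 normal lungs of batch 1 have the tallest bars at 761 and 592.

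Ratios between chains do not depend on the scaling of a library. Krt8 to Krt18 was 0.751 ± 0.0453 in tumors, 1.21 ± 0.136 in lungs with a distant tumor and 1.36 ± 0.126 in normal lungs (mean ± SD, n = 3, 4 and 4, as for the ratios that follow). Every tumor had less Krt8 than Krt18 per length, and every lung more. Krt7 to Krt8, both type II, was 0.401 ± 0.111 in tumors, 2.77 ± 0.157 in tumor-bearing and 3.02 ± 0.390 in normal lungs. Krt19 to Krt18, both type I, was 0.0277 ± 0.00641, 3.78 ± 0.342 and 3.26 ± 0.298. In all 3 ratios the tumors lay below every lung of either kind. By exact two-sided permutation tests the 6 comparisons with tumors each gave p = 0.0571, the smallest that 3 against 4 libraries allow, and 0.0735 adjusted over the 9 comparisons made. These tests treated libraries as independent and took no account of batch. However, 3 tumor-bearing lungs came from the mice that gave the tumors, and all tumors were in batch 2. Between tumor-bearing and normal lungs p was 0.171 for Krt8 to Krt18, 0.286 for Krt7 to Krt8 and 0.0571 for Krt19 to Krt18, and the groups overlapped in all 3. All type II over all type I chains of the 53 keratins stood at 0.987 ± 0.118 in tumors, 1.24 ± 0.0386 in tumor-bearing and 1.57 ± 0.149 in normal lungs. These groups did not overlap, but the second libraries of normal lungs 6886 and 6888 stood at 1.26 and 1.37, and tumor-bearing lungs reached 1.27.

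**Figure D4:**
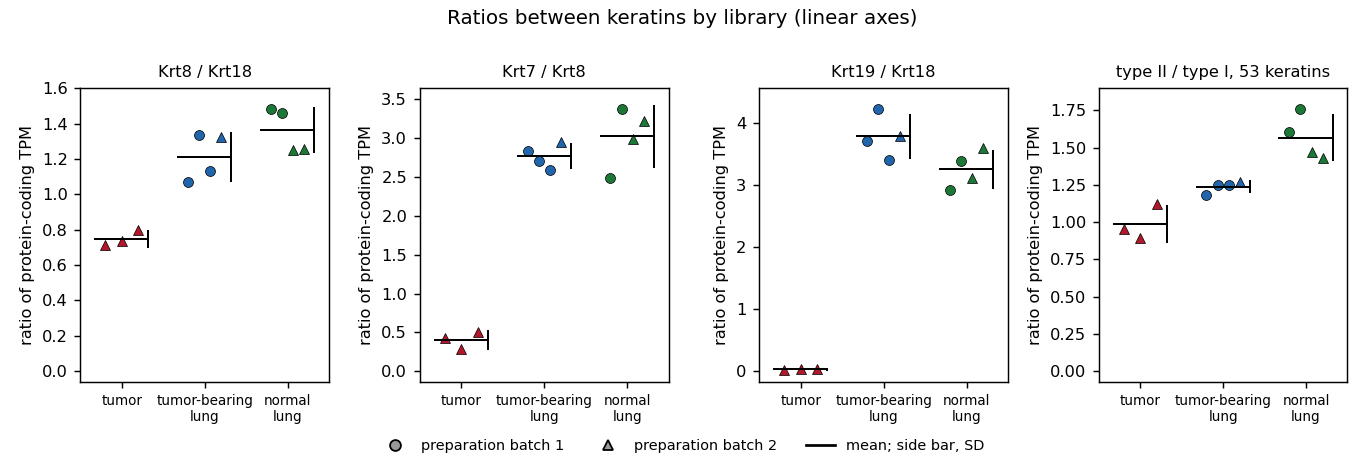
Ratios of protein-coding TPM (vertical axes, linear) between Krt8 and Krt18, Krt7 and Krt8, Krt19 and Krt18, and all type II and type I keratins, for each of 11 libraries; circles are batch 1, triangles batch 2, lines means and side bars SD. The tumors lie below all lungs in each panel.

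Measured against epithelial adhesion genes, the keratins changed unequally. Krt18 per Cdh1, the adhesion molecule E-cadherin, was 5.15 ± 1.49 in tumors and only 0.586 ± 0.0899 and 0.566 ± 0.114 in tumor-bearing and normal lungs (mean ± SD, n = 3, 4 and 4). Krt8 per Cdh1 was 3.84 ± 0.966, 0.704 ± 0.0476 and 0.772 ± 0.170. Krt19 per Cdh1 was 0.137 ± 0.0186 in tumors and 2.21 ± 0.321 and 1.82 ± 0.245 in the lungs. Krt7 per Cdh1 was 1.57 ± 0.650 in tumors, with a range of 0.838 to 2.08 that overlapped the 1.80 to 2.48 of the lungs. Cdh1 itself was 0.59 lower on the log2 scale in tumors than in normal lungs and did not pass (adjusted p = 0.0699). Epcam, a second epithelial adhesion molecule, rose by 3.21 (adjusted p = 1.03e-06), and Krt18 per Epcam was 1.12 ± 0.0763 in tumors and 1.92 ± 0.306 and 1.85 ± 0.420 in tumor-bearing and normal lungs.

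The lungs with and without a tumor elsewhere were then compared, which is the contrast the series was made for. Of the 9 keratins, the 4 luminal ones were tested in the 8 lungs and 0 were called by edgeR, where 0.0359% of 16727 tested genes were called. Among these 4, Krt7 alone had an unadjusted edgeR p under 0.05. Its log2 difference was −0.47 (95% confidence interval −0.91 to −0.03, adjusted p = 0.336). It was −0.40 for Krt8 (−0.92 to 0.11, adjusted p = 0.456), −0.22 for Krt18 (−0.66 to 0.21, adjusted p = 0.636) and 0.02 for Krt19 (−0.33 to 0.37, adjusted p = 0.969). The groups overlapped in each of the 4. These intervals leave room for a change of up to about 1 log2 unit in Krt7 or Krt8. In the lungs the basal keratins stayed at 0 to 6 counts per library, too few to show a change of that size.

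The 2 batches gave different values for this comparison. Within batch 1, with 2 normal and 3 tumor-bearing lungs, the log2 difference was −0.85 for Krt7, −0.79 for Krt8, −0.45 for Krt18 and −0.18 for Krt19. Within batch 2, with 4 normal lungs and tumor-bearing lung 6877 alone, it was 0.33, 0.18, 0.23 and 0.32. These 4 normal lungs included the second libraries of mice 6886 and 6888, so the same 2 mice entered both batches. All 4 keratins were thus below 0 in batch 1 and above 0 in batch 2. The second libraries were left out of the interaction that follows. The difference between batches, an interaction term fitted over the 8 lungs, was 1.06 for Krt7 (SE 0.22, adjusted p = 0.225), 1.07 for Krt8 (SE 0.34, adjusted p = 0.427), 0.65 for Krt18 (SE 0.36, adjusted p = 0.615) and 0.56 for Krt19 (SE 0.27, adjusted p = 0.577), so none passed over all 16727 genes, of which 11 passed. Without tumor-bearing lung 6877, Krt7 was called lower in tumor-bearing lungs, at −0.86 with adjusted p = 0.0366. In that fit 1.29% of tested genes were called. The second libraries of normal lungs 6886 and 6888, prepared in batch 2, held 150 and 160 CPM of Krt7 against 282 and 235 in batch 1, so the same 2 mice were lower in batch 2.

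**Figure D5:**
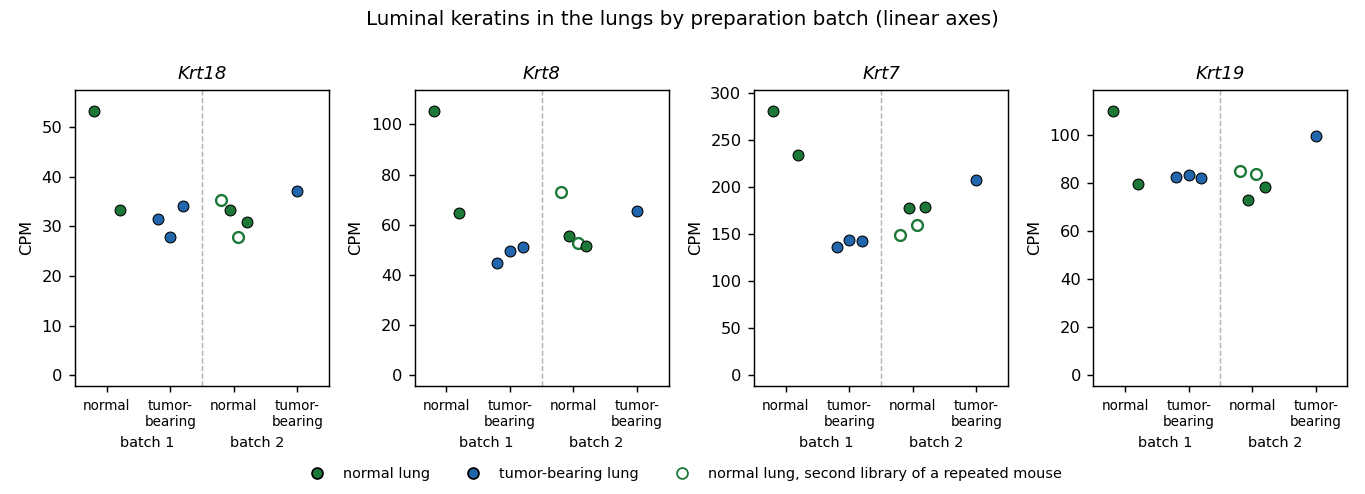
CPM of Krt18, Krt8, Krt7 and Krt19 (vertical axes, linear) in normal and tumor-bearing lungs, split by preparation batch; open circles are the second libraries of normal mice 6886 and 6888, which the main comparison did not use. In batch 1 both normal lungs lie above the 3 tumor-bearing lungs for Krt7 and Krt8, and in batch 2 the 1 tumor-bearing lung lies above all 4 normal libraries for Krt7, Krt18 and Krt19.

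Between tumor-bearing and normal lungs only 0.0359% of all tested genes were called, so an absence of calls says little about a short list. None of the 6 alveolar type 2, 5 alveolar type 1, 3 club cell and 4 ciliated cell markers was called. Their median log2 differences were −0.25, −0.26, 0.21 and −0.10 beside 0.01 over all genes tested. The summed alveolar type 2 level was 16265 to 32686 protein-coding TPM in tumor-bearing and 22812 to 35621 in normal lungs, and the part of this in the keratin values was not tested. Csn3, a casein transcript that was abundant in the tumors, was rare in every lung. It stood at 327 ± 68.2 CPM in tumors but at 0.990 ± 0.434 and 0.490 ± 0.336 in tumor-bearing and normal lungs (mean ± SD over 3, 4 and 4 libraries). The difference of Csn3 between the lungs was not called by edgeR (log2 1.01, adjusted p = 0.446). Other milk protein transcripts were low in the tumors too, with means of 0.803 CPM for the casein Csn2 and 2.98 CPM for Wap.

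Among the 44 other keratin genes, 12 had 0 counts in all 13 libraries. In tumors the 9 keratins described here held 99.0 ± 0.205% of all keratin transcript by protein-coding TPM, against 82.4 ± 1.87% and 81.6 ± 2.66% in tumor-bearing and normal lungs (mean ± SD over 3, 4 and 4 libraries). Of the other genes 5 passed the filter in the comparisons with tumors, and 4 of them fell against both kinds of lung and 0 rose, where 24.7% of all tested genes fell against normal and 23.7% against tumor-bearing lungs. Krt80, a type II chain of many epithelia, filled most of the gap. It stood at 2.14, 1.25 and 1.40 CPM in tumors 6877, 6880 and 6881. It stood at 62.2, 61.1, 66.9 and 46.6 CPM in tumor-bearing lungs 6879, 6880, 6881 and 6877 and at 88.8, 91.5, 50.5 and 58.8 in normal lungs 6886, 6888, 6887 and 6893. The tumors were far below every lung, and Krt80 fell by 5.19 on the log2 scale (SE 0.23) against normal and by 4.78 (SE 0.23) against tumor-bearing lungs. Krt23, a type I chain, had log2 differences of −3.23 (SE 0.28) and −3.08 (SE 0.29), and Krt79, a type II chain, of −2.93 (SE 0.40) and −2.81 (SE 0.42). Against tumor-bearing lungs Krt79 lost its call with the mouse as a block on 6 libraries and no batch term (adjusted p = 0.0612). Krt10, a chain of suprabasal skin, had −2.44 (SE 0.59) and −2.83 (SE 0.64). Its counts were 9 to 23 in the lungs of the main comparison and 2 to 5 in the tumors. It passed the filter only through the lungs, so it had to be lower. Krt23, Krt79 and Krt13 were singled out after their values were seen. Krt13, a chain of internal stratified epithelium, was at 48 and 49 counts in 2 libraries of different normal mice, 6886 in batch 2 and 6888 in batch 1, at 1 and 2 counts in the other library of each, and at 0 in all tumors and tumor-bearing lungs. Across 11330 genes the differences between mice 6886 and 6888 in batch 1 correlated with those in batch 2 at only 0.0692, so whether the second libraries carry the right mouse label was not settled, and the 2 high values may not be from different mice.

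Genes that work with keratins moved in both directions in tumors against normal lungs, a comparison in which 49.3% of all tested genes were called, 24.5% higher and 24.7% lower. Of 15 other intermediate filament genes 8 were tested, 2 rose, 4 fell and 2 did not pass, with a median log2 fold change of −0.64 beside −0.04 over all genes. Among the 4 is Bfsp1, averaging 0.0518 CPM in tumors, which passed the filter only through the lungs and so had to be lower. The nuclear lamin Lmnb1 rose by 3.40. Vim, the filament of mesenchymal cells, fell by 1.17, the muscle filament Des by 4.93 and its partner Synm by 3.75. Of 15 genes that anchor keratins at desmosomes and hemidesmosomes 14 were tested, 5 rose, 7 fell and 2 did not pass, with a median of −0.70. Among the 5 is Pkp1, a plakophilin at 0 CPM in all lungs, which passed the filter only through the tumors and so had to be higher. Itgb4, the integrin of hemidesmosomes, rose by 4.51 (adjusted p = 7.08e-07), and the desmosomal plakophilin Pkp3 rose by 3.45 and the keratin organiser Fam83h by 1.95. Ppl, the cytolinker periplakin, fell by 3.67. Against tumor-bearing lungs 5 of the anchor genes rose and 4 fell, where 22.6% of all tested genes rose and 23.7% fell. Between the lungs 0 of 13 were called, where 0.0359% of all tested genes were.

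Of 13 regulators of epithelial genes 12 were tested against normal lungs, 6 rose, 2 fell and 4 did not pass, with a median of 0.80, again beside 49.3% of all genes called. Trp63 is 1 of the 6. Elf5, the regulator of mammary alveolar luminal cells, rose by 2.59, Grhl1, a grainyhead factor, by 3.41 and the epithelial splicing factor Esrp1 by 2.43, while Klf4, a factor of differentiating epithelium and vessels, fell by 3.95. Of 6 mesenchymal transition factors, 2 rose and 3 fell. Twist1 stood at 0.0987 ± 0.144 CPM in normal lungs (SD, n = 4) and 18.1 ± 2.47 in tumors (SD, n = 3). It passed the filter only through the tumors, so its call was fixed by the filter. Zeb1, Zeb2 and Snai2 fell by 3.65, 2.00 and 2.44. Of 10 mammary luminal markers 8 were tested, 5 rose, 1 (Pgr, by 1.32) fell and 2 (Esr1 and Foxa1) did not pass. Among the 5 is Wap, a whey protein at 2.98 CPM in tumors and 0 in normal lungs, which also passed only through the tumors. Pgr, at 0.832 CPM in its lowest tumor, passed the filter only through the lungs and so had to be lower. Csn3 rose by 9.18 and Gata3, the luminal transcription factor, by 2.30, and Foxa1 had a log2 difference of 0.00 (adjusted p = 0.993), whose sign turned under other settings. None of the members of these 5 lists was called between tumor-bearing and normal lungs, where 0.0359% of all tested genes were.

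By the distance between centred log2(TPM + 1) profiles over the 11 libraries, among 6402 genes that are neither keratins nor provisional gene models and had a mean deposited TPM of at least 1, the genes most like Krt18 were Lgals3bp (root mean square distance 0.15) and Tnfrsf12a (0.15). Those most like Krt8 were H2-K1 (0.15) and Ccnd1 (0.17), those most like Krt7 were Tpm4 (0.14) and Anxa5 (0.15), and those most like Krt19 were Pdlim2 (0.15) and Muc1 (0.16). Muc1, a mucin of luminal surfaces, stood at a mean of 5.27 protein-coding TPM in tumors, 240 in tumor-bearing and 181 in normal lungs. On the protein-coding TPM scale the nearest genes were others, Tpi1 and H3f3b for Krt18 and Gstm2 and Nbl1 for Krt19, so the names depend on the scale.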

How the data were processed

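Ribosome-depleted total RNA of 13 libraries from 8 mice was analysed, 11 of them in the main comparisons. Per the submitters' processing notes, Salmon (version not given in the sources used here) and DESeq2 1.18.1 were used with build mm10. The deposited estimated counts per gene are, by their values, Salmon estimates: in each library they equal the authors' deposited TPM times a gene length times 1 factor, within 9.77e-15 on the log2 scale over 12201 genes. Of 46679 gene IDs 46269 had a name in GENCODE M21 (GRCm38). Estimated counts were rounded, filtered with filterByExpr, scaled by TMM and tested with edgeR 4.0.16 (quasi-likelihood, group plus batch, Benjamini-Hochberg adjusted p under 0.05 over all genes tested). Tumor comparisons used 11 libraries, and the comparison between lungs 8. Other tools were R 4.3.3, limma 3.58.1, DESeq2 1.42.0 and scipy 1.17.1. Counting intervals are exact for the rounded estimated counts, at 95%, and cover counting error only. Replicates are different mice.

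The 9 keratins, the gene lists and the tests were chosen with earlier results of these data known. Genes were named by rule: the 9 keratins, other keratins with a mean deposited TPM of at least 1 in a group, up to 4 members of each list (by p, or by mean TPM for cell type lists), and the 2 genes nearest to each keratin. Exceptions are named as such. Tumors and lungs of mice 6877, 6880 and 6881 come from the same animals, per the labels, so their numbers pair them. The residuals of the pairs correlated at 0.179, 0.0355 and −0.133 over 18297 genes. On simulated counts edgeR found 92% of genes changed by 2 log2 units and 25% of those changed by 1 in tumors against normal lungs (17920 genes). It found 84% and 12% against tumor-bearing lungs (17920 genes), and 98% and 48% between lungs (16466 genes). The simulation changed only 100 genes at each size, whereas 49.3% and 46.3% of tested genes were called in the 2 tumor comparisons. The shares found hold for the simulated setting and do not measure recovery in those comparisons. Against normal lungs, where 24.5% of all tested genes rose in tumors and 24.7% fell, 0 of 5 mesothelium markers rose and 5 fell. Of 3 club cell markers 0 rose and 3 fell, and of 4 ciliated cell markers 0 rose and 2 fell. Of 5 alveolar type 1 markers 1 (Aqp5) rose and 4 fell, and of 6 alveolar type 2 markers 0 rose and 6 fell. The 3 fat cell markers and 3 of 4 general epithelium markers rose and 0 fell. Adipoq and Cfd passed the filter only through the tumors, so they had to rise. Of 2 tested suprabasal skin markers 0 rose and 1 (Krt10) fell. The 5 mesothelium markers, Krt10, Tekt1, Lamp3, Rtkn2 and Scgb3a2 passed the filter only through the lungs, so their falls carry no weight. The same holds for Sftpc, Sftpb, Sftpa1, Hopx, Scgb1a1 and Cyp2f2, which at least 1 tumor held below the level the filter asks for. The falls of all 3 club cell markers were thus fixed by the filter. Of the alveolar markers that fell, only Abca3, Napsa, Ager and Pdpn also passed through the tumors.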

Additional observations from a re-analysis of the deposited data

Results flagged for a closer look

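In 12 keratins and 2 groups of 4 lungs, 1 library stood far from the other 3 by Dixon's test in 5 cases. Chance gives about 1 in 20 groups only where the values are independent. The 12 keratins were read from the same libraries, so the 5 cases cannot be set against that rate. Tumor-bearing lung 6877 was the highest of its group for Krt7 at 208 CPM, Krt19 at 99.3 CPM and Krt23 at 14.1 CPM. It was also the one tumor-bearing lung prepared in batch 2, and the part of the batch was not tested. Normal lung 6886 was the highest of its group for Krt18, at 53.3 CPM. Tumor-bearing lung 6880 was the only one of its group with Krt5, at 0.0644 CPM, which was 1 count. The rest of its group had 0 counts, so any count there would stand out.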

How the results depend on the processing

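Krt8, Krt18 and Krt19 kept their direction and call in both tumor comparisons under every alternative run, and Krt7 did not (values beside its results). Krt14 was called wherever it was tested. Its log2 difference ran from 0.62 to 7.04 against normal and from 0.64 to 7.88 against tumor-bearing lungs. In the filtered settings it passed only through the tumors, so those calls carry no weight. The number of genes called between the lungs, 6 in the main analysis, was 275 without a filter, 426 with DESeq2, 90 and 65 with limma on log2(TPM + 1) and log2(TPM + 0.1), 39 with batch 1 alone, 1 without a batch term, 1 when mice 6886 and 6888 were represented by their second library, and 0 to 221 leaving out 1 library. Leaving out normal lung 6886, or any of tumor-bearing lungs 6879, 6880 and 6881, gave 0, where 1512 to 2158 genes had an unadjusted edgeR p under 0.05. Leaving out normal lung 6887 gave 16, and leaving out tumor-bearing lung 6877 gave 221. In tumors against tumor-bearing lungs limma on log2(TPM + 1) called 5322 genes against 8471. With the mouse as a replicate block, 8607 genes were called on 13 libraries with a batch term and 7810 on 6 without one. Beside Krt7 and Krt79 the block changed no call of a keratin.

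Between the lungs the sign turned with the second libraries of mice 6886 and 6888 and with batch 2 alone for Krt7 (0.33 and 0.33), Krt8 (0.18 and 0.18), Krt18 (0.23 and 0.23), Krt23 (0.32 and 0.32) and Krt79 (0.14 and 0.13), and with the former for the log2 ratio of Krt7 to Krt8 (0.045). Krt19 gave −0.0032 without a filter, −0.60 and −0.66 with limma on log2(TPM + 1) and log2(TPM + 0.1), which move the median of all genes by −0.25 and −0.55, and −0.18 with batch 1 alone. Leaving out 1 library gave −0.46 to 0.054 for Krt18, −0.19 to 0.22 for Krt19 and −0.25 to 0.0048 for Krt79. With 1 library left out, Krt7 in tumors against tumor-bearing lungs ran from −0.86 to 0.013, the latter without tumor-bearing lung 6877. Foxa1 in tumors against normal lungs gave −0.011 with DESeq2 size factors, −0.018 without a filter, −0.011 with DESeq2, −0.043 with voom, −0.11 and −0.26 on the TPM scales, −0.034 without a batch term and −0.38 to 0.17 leaving out 1 library. The causes were not tested. The interaction of group and batch and the ratios under other libraries were added after seeing the data.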
